A study of Mus musculus with 10 samples.

Results

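Tumors treated with YH29407 and aPD-1 together were compared with tumors treated with YH29407 alone, gene by gene across the genome. The comparison took 6 of the 10 libraries of the series: YH29407+aPD-1 replicates 2, 3 and 4 (the combination group) and YH29407 replicates 1, 3 and 4. All libraries came from MC38 tumors, a mouse colon carcinoma line grown under the skin of wild-type C57BL/6 mice, and per the study's methods the mice were female and the tumors were fixed in formalin and embedded in paraffin before RNA was taken. YH29407, an inhibitor of the enzyme IDO1, was given to both groups, per the study's methods at 100 mg/kg by mouth, and the combination group also received aPD-1, an antibody against the receptor PD-1, at 10 mg/kg. The remaining libraries, 2 of tumors given aPD-1 alone and 2 of control tumors, entered the fit and are given where they place a result. A subcutaneous graft of a cell line holds the grafted tumor cells and the host's own stroma, vessels and immune cells, and in such a bulk sample fewer cells of a type and less RNA per cell cannot be told apart. The labels name the replicates without saying that each came from its own animal, so that p-values measure only the spread between these libraries.

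As background, IDO1 breaks down tryptophan to kynurenine. Its inhibition keeps tryptophan available to T cells and lowers kynurenine, which is a ligand of the aryl hydrocarbon receptor, a transcription factor that drives its own set of detoxifying enzymes. PD-1 is a brake on the surface of activated T cells, and antibodies against it release them. Released T cells secrete interferon gamma, which is itself a strong inducer of IDO1 in other cells. The question that the comparison addresses is what aPD-1 adds at the level of RNA to a tumor in which IDO1 is already inhibited.

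Libraries held 56170804 counts (combination replicate 4) to 76287659 counts (combination replicate 2), and 21523 of 45777 genes passed the filter on low counts. Values are given below as CPM, the count of a gene relative to the TMM-scaled size of its library, in the order combination replicates 2, 3 and 4, then YH29407 replicates 1, 3 and 4. Combination replicate 4 stood apart from the other 9 libraries, with Spearman correlations of 0.895 to 0.919 with them across the 21523 genes. Its 50 most abundant genes made up 14.9% of all counts, compared with 7.72% to 8.61% elsewhere. Its deviation from the 4 aPD-1 and control libraries followed the GC content of the genes: the median deviation was -1.58 (log2) for genes under 40% GC and 0.99 for genes over 58% GC. In combination replicate 2 the same medians were -0.45 and 0.23, and in YH29407 replicate 3 they were -0.22 and 0.10, whereas they were between -0.10 and 0.09 in the other 7 libraries. Values after a correction for this trend, called GC-corrected below, are therefore given beside results that rest on combination replicate 4. YH29407 replicate 3 was less like replicates 1 and 4 of its own group (0.965 and 0.961) than these were like each other (0.983). The defining markers of colon epithelium were low in all 6 libraries: the keratins Krt8 and Krt18 were at most at 0.49 CPM and the villin gene Vil1 at most at 1.72 CPM, so that the labelled cell type was not visible in its usual markers.

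**Figure D1:**
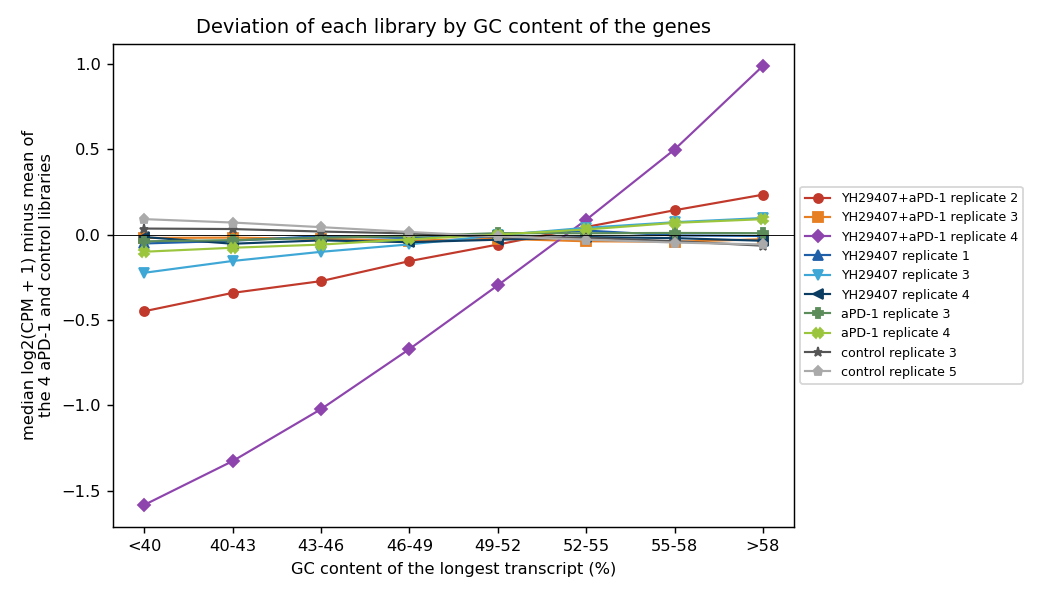
Deviation of each of the 10 libraries (median over genes of log2(CPM + 1) minus the mean of the 4 aPD-1 and control libraries, vertical axis) in 8 classes of GC content (horizontal axis, percent, longest transcript), over 11425 genes of at least 5 CPM. The line of combination replicate 4 climbs from -1.58 to 0.99, those of combination replicate 2 and YH29407 replicate 3 climb less, and the others stay near 0.

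The edgeR fit called 0 of 21523 genes (0%) at the adjusted threshold of 0.05, and the smallest adjusted p was 0.0622. At an unadjusted p under 0.05 there were 2280 genes with higher estimates in the combination group (10.6%) and 1473 with lower estimates (6.84%), together 17.4%. DESeq2, fitted to all 10 libraries, called 1415 genes, and fitted to the 6 it called 793, while limma-voom with sample quality weights called 8090. With 1 library left out in turn, edgeR called 431 genes without YH29407 replicate 3, 175 genes without combination replicate 4 and 0 genes without any of the other 4. The calls thus differed by tool and by which libraries were kept, and values per library are given below. The 3 combination values exceeded all 3 YH29407 values in 2244 genes (10.4%) and were under all of them in 1959 genes (9.1%). After GC correction, over the 19739 genes with a GC value, these shares were 11.997% and 8.84%. The counts of lists given below are to be read against these shares, which varied with level. Before GC correction, 14.98% of genes with a mean under 1 CPM over the 6 libraries lay above and 4.71% below. Of genes of 10 to 100 CPM, 7.15% lay above and 12.65% below, so that lists of low genes have another background. Single genes were called "higher" or "lower" below only for the place of their libraries or of their estimate, since no gene passed the adjusted threshold in this fit.

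Genes with the smallest p among those whose libraries lay below were led by Fgf7, a growth factor of epithelial cells secreted by stroma. It had 2.17, 1.61 and 2.28 CPM in the combination group, against 23.7, 20.5 and 32.3 CPM with YH29407 alone, and 5.74 and 7.03 CPM with aPD-1 and 17.5 and 8.78 CPM in control tumors. Its log2 fold change was -3.66 ± 0.35 SE, with an adjusted p of 0.0622, and -3.74 without combination replicate 4 (adjusted p = 0.0209). Met, the receptor of hepatocyte growth factor, had 23.2, 33.6 and 33.6 CPM in the combination group, against 74.2, 119 and 69.3 CPM with YH29407 alone, which gave a log2 fold change of -1.54 ± 0.27 SE. All 3 combination libraries were also below the 4 aPD-1 and control libraries for both genes. Sema3a, a secreted semaphorin that repels growing axons and endothelial cells, had 33.7, 36.6 and 31.3 CPM in combination tumors and 83.6, 185 and 89.3 CPM in YH29407 tumors, with YH29407 replicate 3 the highest library. Pla1a, a phospholipase that acts on phosphatidylserine, had 12.9, 13 and 9.01 CPM with the combination, against 50.6, 39.4 and 51.8 CPM with YH29407, which gave a log2 fold change of -2.02 ± 0.28 SE. Here the YH29407 group was the one that stood out, since the aPD-1 tumors were at 11.5 and 10.7 CPM and the control tumors at 24.4 and 13.4 CPM.

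Apol8, an apolipoprotein L gene, likewise had 2.32, 1.39 and 1.85 CPM in the combination group, against 8.17, 10.5 and 8.77 CPM with YH29407 alone, and 2.02 and 1.68 CPM in control tumors. Sh3gl3, an endophilin of synaptic vesicle uptake, had 2.66, 2.83 and 2.9 CPM in the combination libraries and 9.95, 9.23 and 7.84 CPM in the YH29407 libraries. Both kept the 3 combination libraries within a narrow range, replicate 4 included. Gpnmb, a lysosomal glycoprotein of macrophages and pigment cells, had 12.8, 12.2 and 25.5 CPM in the combination group, against 109.7, 51 and 159 CPM with YH29407 alone, and the metallothionein Mt2, which binds zinc and copper, had 32.6, 30.8 and 32.4 CPM in combination tumors and 77.2, 79.99 and 107 CPM in YH29407 tumors. In the remaining genes of this kind (Ank, Cldn12, Cfap77 and Esd) log2 fold changes were between -2.34 and -1.02. Usp17la, Mme and Cd79a, the other 3 of these 15, were high in YH29407 replicates 1 and 4 and are described with that pattern.

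Genes whose libraries lay above were led by Marcks, a substrate of protein kinase C at the cell membrane, with 92.9, 58.3 and 79.2 CPM with the combination, against 18.9, 24 and 22.1 CPM with YH29407 (log2 fold change 1.83 ± 0.22 SE, adjusted p = 0.148). Replicate 4 lay between the other combination libraries. Rxra, the retinoid X receptor that pairs with many other nuclear receptors, had 53.5, 57 and 60.6 CPM in the combination libraries and 14.2, 19.9 and 19.6 CPM in the YH29407 libraries. The 3 values of each group were close to each other, and the aPD-1 tumors, at 39.96 and 41.1 CPM, lay between the groups. Egr3, a transcription factor switched on by T cell receptor and growth factor signals, had 8.15, 4.7 and 11.9 CPM in the combination group, against 1.45, 1.66 and 1.47 CPM with YH29407 alone, and Ptprn, a membrane protein of secretory granules, had 78.9, 50.2 and 77.6 CPM in combination tumors and 18.2, 28 and 23.9 CPM in YH29407 tumors. For Ptprn the control tumors were at 72.6 and 62.2 CPM, within the range of the combination group, so that treatment with YH29407 alone was the low group. Plcd1, a phospholipase C, had 57.1, 48.6 and 42.3 CPM with the combination, against 18.2, 18.1 and 24.2 CPM with YH29407, and Ocstamp, a gene of fusing osteoclasts, had 4.44, 3.47 and 2.64 CPM in the combination libraries and 0.401, 0.79 and 0.289 CPM in the YH29407 libraries. Cd6, a receptor of T cells, had 7.61, 6.79 and 5.2 CPM in the combination group, against 1.06, 2.04 and 0.88 CPM with YH29407 alone.

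Among the other genes of the 15, Scel, Dsc2 and Dsg1a are genes of stratified epithelium, and Scel had 6.99, 5.53 and 3.11 CPM in combination tumors and 0.525, 0.421 and 0.808 CPM in YH29407 tumors. All 22 keratinocyte and skin genes tested had higher estimates in the combination group, and their summed level was 785, 249.8 and 23.5 CPM there, against 32.1, 21.3 and 90.2 CPM with YH29407 alone. The keratins Krt5, Krt1 and Krt14 were at 0, 0.0539 and 0.342 CPM in combination replicate 4. The part of skin in these genes was not tested. Serpina1b, a gene of the α-1-antitrypsin cluster whose copies can share reads, is described with the liver genes, and Unc5a with the axon guidance genes. The remaining member Vwa3a had 1.5, 1.18 and 0.827 CPM with the combination, against 0.221, 0.198 and 0.159 CPM with YH29407. The T cell receptor segments Trav7d-2 and Trav7-2 had 0 counts in every YH29407 library.

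**Figure D2:**
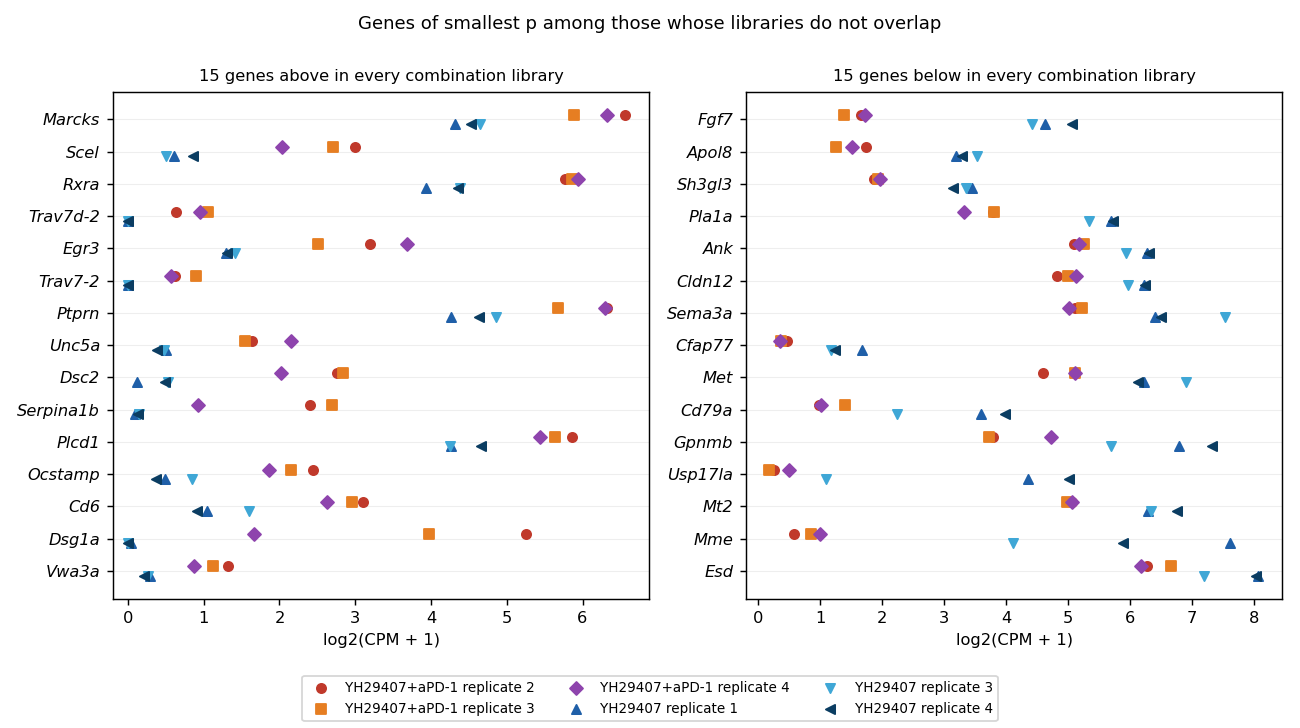
Expression of the 15 higher and 15 lower genes of smallest p among those whose libraries do not overlap, as log2(CPM + 1) per library (horizontal axis), with combination libraries drawn above YH29407 libraries in each row. The points of each gene are separated by group by construction. Fgf7 shows 1.61 to 2.28 CPM in the combination group and 20.5 to 32.3 CPM with YH29407 alone.

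Ranked by the difference in mean CPM, an order that favors long and abundant genes since CPM is not per length, the genes above were led by Plxnd1 and held several collagens. Plxnd1, a semaphorin receptor of endothelium and immune cells, had 1520.1, 1204 and 2034 CPM in the combination libraries and 478, 1071 and 427 CPM in the YH29407 libraries. YH29407 replicate 3 came close to the combination group, as did the aPD-1 and control tumors at 1016 and 1321 CPM and 1009.7 and 1112 CPM, so that YH29407 replicates 1 and 4 were the low libraries. Col1a1, the main collagen of fibroblasts, had 927, 633 and 1499 CPM in the combination group, against 405, 358 and 226 CPM with YH29407 alone, which gave a log2 fold change of 1.63 ± 0.34 SE that was 1.26 after GC correction. Col6a3, Col5a1 and Col5a3, Hspg2 (the basement membrane proteoglycan perlecan), the translation factor Eif3a and the desaturase Scd2 also lay above, with log2 fold changes of at least 0.58. In these 6 genes, as in Plxnd1 and Col1a1, combination replicate 4 was the highest of the 3 libraries.

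Fn1, the matrix protein fibronectin, had the largest difference in the other direction, with 2148, 2051 and 1394 CPM in combination tumors and 5215, 2312 and 4787 CPM in YH29407 tumors (log2 fold change -1.14 ± 0.29 SE). YH29407 replicate 3 lay at less than the aPD-1 and control libraries, which were at 3158 and 3272 CPM and 2886 and 3071 CPM. Lars, the leucyl-tRNA synthetase, had 223, 279 and 320.4 CPM with the combination, against 555, 399.97 and 512 CPM with YH29407, and without combination replicate 4 its log2 fold change was -0.96 (adjusted p = 0.0494). Xdh, which makes uric acid from purines, had 176, 169 and 63.2 CPM in the combination libraries and 379, 187 and 543 CPM in the YH29407 libraries. Lrba and Myof, proteins of membrane traffic and repair, had log2 fold changes of -1.29 and -0.70, and the other 5 of these abundant genes (Rpl21, Dync1h1, Ddb1, Ubr4 and Atp13a3) had values from -0.84 to -0.12, with that of Rpl21 at 0.04 after GC correction. The ribosomal protein gene Rpl21 has many processed copies that can share its reads.

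The separated genes of the 6 libraries were also set beside the 4 others. Of the 2244 genes above, only the combination libraries lay beyond all 7 other libraries in 974 (43.4%), only the YH29407 libraries lay beyond all 7 others in 248 (11.1%), both did so in 55 (2.45%) and neither in 967 (43.1%). Of the 1959 genes below, the same counts were 665 (33.9%), 310 (15.8%), 37 (1.89%) and 947 (48.3%). A further pattern came from YH29407 replicates 1 and 4 alone, which lay above the other 8 libraries of the series in 2263 genes (10.5%) and below them in 1648 genes (7.66%). Such genes made up 689 of the 1959 genes below (35.2%) and 597 of the 2244 above (26.6%). Both counts are descriptions, since a gene separated in the comparison more readily places these libraries at an extreme.

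The genes high in YH29407 replicates 1 and 4 included several of the largest differences of the comparison. Mme, the membrane peptidase neprilysin, had 0.495, 0.814 and 0.989 CPM in the combination group, against 196, 16.3 and 58.4 CPM with YH29407 alone, with 3.59 and 43.4 CPM in the control tumors. Usp17la, a deubiquitinase, had 0.19, 0.126 and 0.414 CPM in combination tumors and 19.3, 1.15 and 31.4 CPM in YH29407 tumors. Ereg and Areg, ligands of the EGF receptor, followed: Ereg had 1.17, 0.393 and 1.24 CPM with the combination, against 24.3, 1.87 and 36.8 CPM with YH29407, and Areg had 1.37, 0.421 and 0 CPM in the combination libraries and 21.3, 0.843 and 17.4 CPM in the YH29407 libraries. For Ereg, YH29407 replicate 3 was just above the combination group, and for Areg it was within it. Kitl, the ligand of the receptor Kit, had 11.2, 19.4 and 6.69 CPM in the combination group, against 81.5, 18.9 and 82.9 CPM with YH29407 alone. YH29407 replicate 3 lay within the combination group. Cd79a, a subunit of the B cell receptor, had 0.977, 1.64 and 1.01 CPM in combination tumors and 11.1, 3.7 and 14.7 CPM in YH29407 tumors, and its partner Cd79b had 2.21, 5.39 and 1.26 CPM with the combination, against 1.22, 1.01 and 2.28 CPM with YH29407.

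**Figure D3:**
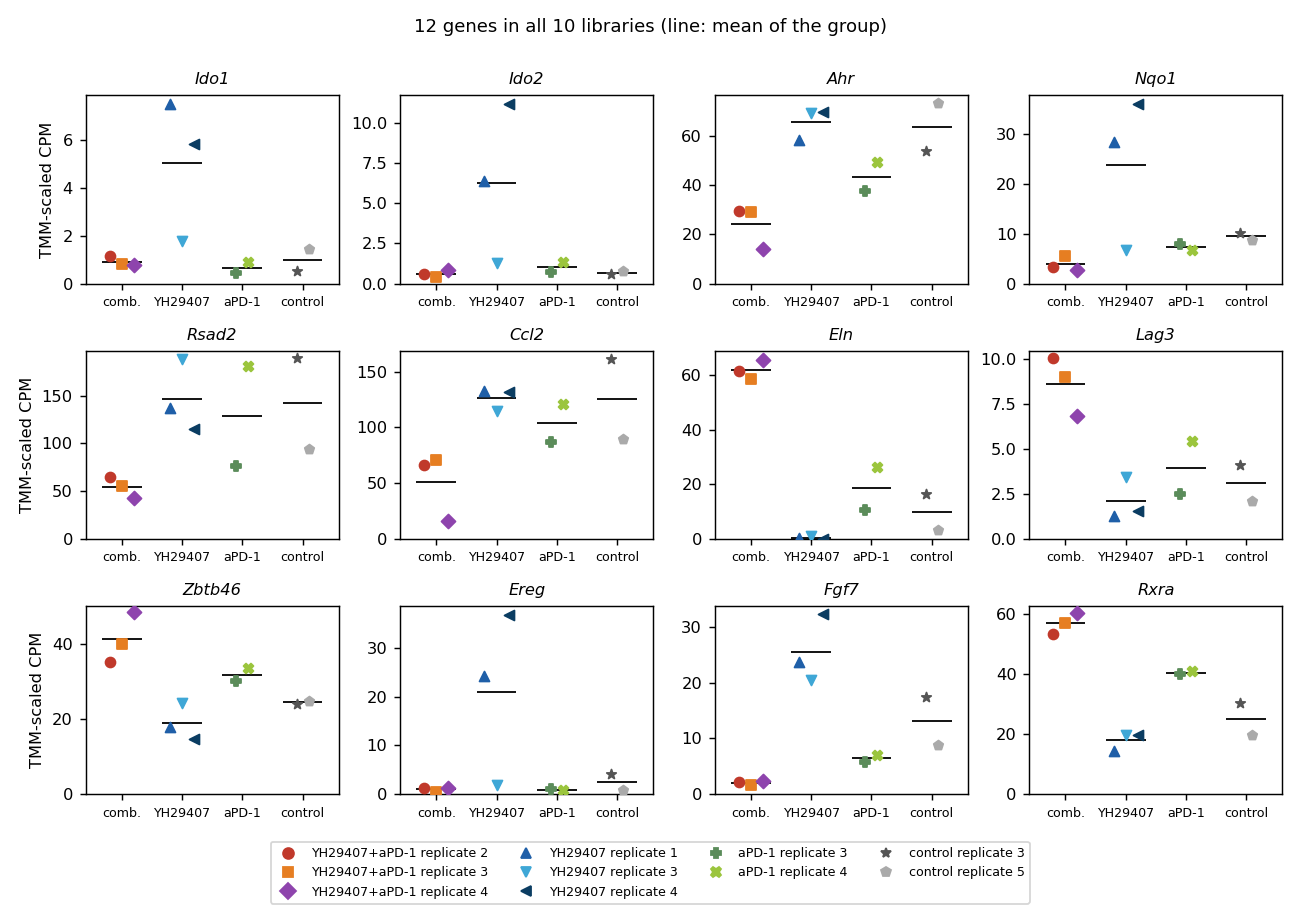
TMM-scaled CPM (vertical axis, from 0) of 12 genes in the 10 libraries, by group: combination, YH29407, aPD-1 and control. Each point is a library and each line the mean of its group (3, 3, 2 and 2 libraries). Ido1, Ido2, Nqo1 and Ereg are high in YH29407 replicates 1 and 4 alone, Ahr and Fgf7 are low in the 3 combination libraries, and Eln and Rxra are high in them.

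Of 14 genes of tryptophan use and breakdown, 5 lay below and 0 above (all genes: 9.1% and 10.4%), and after GC correction 3 lay below and 1 above. Among the 5 were the paired enzymes Ido1 and Ido2 that start the kynurenine pathway. Ido1, the target of YH29407, had 1.17, 0.814 and 0.755 CPM in the combination libraries and 7.49, 1.78 and 5.82 CPM in the YH29407 libraries (log2 fold change -2.46 ± 0.61 SE, unadjusted p = 0.00325). In aPD-1 tumors its level was 0.425 and 0.905 CPM and in control tumors 0.54 and 1.43 CPM, so that only YH29407 replicates 1 and 4 were clearly above the other libraries. Its relative Ido2 had 0.571, 0.393 and 0.863 CPM in the combination group, against 6.39, 1.26 and 11.2 CPM with YH29407 alone, which gave a log2 fold change of -3.37 ± 0.74 SE. Kyat1, an aminotransferase that turns kynurenine into kynurenic acid, had 1.47, 1.39 and 0.575 CPM in combination tumors and 3.1, 2.42 and 3.71 CPM in YH29407 tumors, and Wars, the tryptophanyl-tRNA synthetase that interferon induces, had 63.2, 72.1 and 37.9 CPM with the combination, against 116, 72.6 and 87.6 CPM with YH29407. The next enzymes of the pathway pointed the other way and overlapped: Kmo, which hydroxylates kynurenine, had 4.69, 7.25 and 1.29 CPM in the combination libraries and 3.07, 2.69 and 1.23 CPM in the YH29407 libraries, and Kynu, which cleaves it, had 0.799, 1.18 and 0.396 CPM in the combination group, against 0.429, 0.435 and 0.173 CPM with YH29407 alone. Of the 14 genes, 4 had a lower and 0 a higher estimate at an unadjusted p under 0.05, against 6.84% and 10.6% of all genes. The summed level of the list did not separate, at 672.3, 582.7 and 1192 CPM in the combination group, against 675.1, 674.5 and 646.3 CPM with YH29407 alone, and replicate 4 was the highest library.

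Ahr, the receptor that kynurenine binds, had 29.6, 29 and 13.9 CPM in combination tumors and 58.5, 69.4 and 69.6 CPM in YH29407 tumors. Its log2 fold change was -1.45 ± 0.30 SE, -1.25 after GC correction and -1.16 without combination replicate 4 (adjusted p = 0.0475). The aPD-1 tumors were at 37.6 and 49.3 CPM and the control tumors at 53.8 and 73.6 CPM, all above the combination group. Nqo1, a quinone reductase and target of the receptor, had 3.41, 5.6 and 2.64 CPM with the combination, against 28.5, 6.7 and 36.1 CPM with YH29407, where YH29407 replicate 3 lay just under the aPD-1 and control tumors, which were at 7.92 and 6.82 CPM and 10.1 and 8.79 CPM. Tiparp, another target, had 54.8, 87.6 and 19.6 CPM in the combination libraries and 72.1, 105 and 139.8 CPM in the YH29407 libraries, which overlapped. Of the 7 genes tested in this list, Ahr and Nqo1 lay below (all genes: 9.1%). The median of the list was -0.88, -0.22 and -0.43 in the combination libraries on the log2(CPM + 1) scale, relative to the YH29407 mean.

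Amino acid shortage is sensed by a pathway that runs through the kinase Eif2ak4 and the factor Atf4. Of its 19 genes, 2 had higher and 2 lower estimates at an unadjusted p under 0.05, against 10.6% and 6.84% of all genes. Psat1, of serine synthesis, had 61.8, 69.3 and 96.4 CPM in the combination group, against 126, 96 and 117 CPM with YH29407 alone, which overlapped by combination replicate 4, and the mitochondrial folate enzyme Mthfd2 had 108, 114 and 66.3 CPM in combination tumors and 153, 124 and 144 CPM in YH29407 tumors. Atf5 and Ddit4, whose estimates were higher, had their highest value in combination replicate 4, and the log2 fold change of Atf5 was 1.67 before and 0.94 after GC correction. With replicates 2 and 3 both taken into account, 6 of the 19 genes lay below the YH29407 libraries and 0 above, against 15.4% and 19.4% of all genes.

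Of 26 genes induced by type I interferon, 24 had lower estimates, and 6 lay below in every library and 0 above (all genes: 9.1% and 10.4%). At an unadjusted p under 0.05 there were 2, both lower (lower among all genes: 6.84%). After GC correction 7 lay below (all genes: 8.84%). Rsad2, the antiviral enzyme viperin, had 65.3, 55.5 and 42.3 CPM with the combination, against 138, 188 and 115 CPM with YH29407 (log2 fold change -1.43 ± 0.39 SE), and Cmpk2, its neighbor on the chromosome, had 31, 27.7 and 20.8 CPM in the combination libraries and 55.4, 71.1 and 35.5 CPM in the YH29407 libraries. The aPD-1 and control tumors were at 76.4 and 181 CPM and 190.1 and 93.8 CPM for Rsad2, all above the combination group. Oas3, an enzyme that senses double-stranded RNA, had 88.6, 70.02 and 27.9 CPM in the combination group, against 149, 89.4 and 137 CPM with YH29407 alone, and Oas1a had 138, 124 and 75.1 CPM in combination tumors and 167, 145 and 139 CPM in YH29407 tumors. Combination replicate 4 was the lowest of the 6 libraries in all 4 of these genes. Relative to the YH29407 mean, the median of the list was -0.14, -0.31 and -1.85 in the combination libraries and -0.04, 0.34 and -0.30 with YH29407 alone. After GC correction the medians were -0.09, -0.33 and -1.50 in the combination libraries, and Rsad2 kept a log2 fold change of -1.10. Replicates 2 and 3 thus lay near the YH29407 libraries in the list as a whole, and replicate 4 far below them.

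Many interferon-stimulated genes carry an element to which the transcription factor complex ISGF3 binds, and its core was searched as GAAANNGAAA on both strands in RefSeq promoters (250 bases before to 50 bases after the gene start, GRCm38.p6, which is the mm10 build). It was present in 12 of the 20 type I interferon genes with an entry, against 581 of 14526 genes tested (4%), in 11 of 20 interferon gamma genes, in 0 of 9 T cell genes and in 1 of 28 cell cycle genes. A match is a description of these letters. Shown are the 250 bases before the gene start of 3 of the genes whose libraries lay below, with the element or its reverse complement in capitals: Rsad2 at chr12:26456453-26456702 (minus strand, the element begins 120 bases before the gene start), Oas1a at chr5:120907526-120907775 (minus strand, overlapping elements begin 20 and 14 bases before) and Oas3 at chr5:120777660-120777909 (minus strand, 75 bases before).
Rsad2: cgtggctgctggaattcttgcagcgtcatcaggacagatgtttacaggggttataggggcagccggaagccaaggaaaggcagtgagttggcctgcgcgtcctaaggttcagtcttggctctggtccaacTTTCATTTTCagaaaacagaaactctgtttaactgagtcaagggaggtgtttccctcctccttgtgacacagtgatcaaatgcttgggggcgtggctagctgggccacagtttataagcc
Oas1a: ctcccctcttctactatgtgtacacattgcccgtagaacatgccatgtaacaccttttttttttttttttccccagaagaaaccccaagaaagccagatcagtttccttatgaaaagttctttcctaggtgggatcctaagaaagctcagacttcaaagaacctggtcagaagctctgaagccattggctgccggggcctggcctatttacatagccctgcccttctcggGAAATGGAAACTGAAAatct
Oas3: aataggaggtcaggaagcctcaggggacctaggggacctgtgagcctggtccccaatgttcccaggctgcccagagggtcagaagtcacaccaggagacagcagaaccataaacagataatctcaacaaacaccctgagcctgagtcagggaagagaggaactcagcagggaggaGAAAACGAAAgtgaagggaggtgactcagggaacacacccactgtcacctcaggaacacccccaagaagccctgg

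Genes induced by interferon gamma split by library. The median of the 31 genes was 0.51, 0.46 and -1.38 in the combination libraries, against -0.22, 0.58 and -0.38 with YH29407 alone, and -0.63 in combination replicate 4 after GC correction. The chemokine Cxcl9, which draws T cells, had 89.8, 85 and 5.66 CPM with the combination, against 26.3, 27.9 and 35.8 CPM with YH29407. Replicates 2 and 3 were above every YH29407 library and replicate 4 below every one, and the same held for Gbp8, a guanylate-binding protein, with 128, 131 and 10.02 CPM in the combination libraries and 27.6, 63.8 and 26.8 CPM in the YH29407 libraries. Irf8, a factor of macrophages and dendritic cells, was the only member above in every library, with 28.9, 30.1 and 21.7 CPM in the combination group, against 12.1, 18.2 and 12.6 CPM with YH29407 alone (log2 fold change 0.91 ± 0.23 SE). Ubd, a ubiquitin-like modifier, had 19.4, 19.4 and 5.57 CPM in combination tumors and 0.816, 16.6 and 0.505 CPM in YH29407 tumors, and YH29407 replicate 3 was the highest of its group for Gbp8, Irf8 and Ubd.

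Checkpoint receptors and ligands had higher estimates in 13 of 17 genes, of which 7 had an unadjusted p under 0.05 (higher among all genes: 10.6%) and 4 lay above in every library (all genes: 10.4%), as they did after GC correction. Lag3, an inhibitory receptor of activated T cells, had 10.04, 9.01 and 6.82 CPM with the combination, against 1.26, 3.45 and 1.57 CPM with YH29407 (log2 fold change 2.04 ± 0.50 SE), and Tigit, another, had 3.64, 4.32 and 4.57 CPM in the combination libraries and 1.26, 3.24 and 1.23 CPM in the YH29407 libraries. For Tigit, YH29407 replicate 3 lay just under the combination group. Vsir, the ligand VISTA of myeloid cells, had 30.7, 35.9 and 17.9 CPM in the combination group, against 15.1, 16.1 and 16.5 CPM with YH29407 alone, with an adjusted p of 0.0253 without combination replicate 4. Nectin2, a ligand of Tigit, had 25.3, 21.4 and 32 CPM in combination tumors and 13.9, 15.2 and 15.1 CPM in YH29407 tumors, whereas Pvr, the other ligand, had 32.2, 31.4 and 34.2 CPM with the combination, against 56.3, 28.9 and 94.2 CPM with YH29407, which overlapped. Pdcd1, which encodes PD-1, had 4.33, 5.32 and 1.47 CPM in the combination libraries and 0.65, 2.42 and 0.635 CPM in the YH29407 libraries, with replicate 4 below YH29407 replicate 3. Cd160, a receptor of NK and T cells, was high in replicates 2 and 3 (1.6 and 1.66 CPM) and at 0.036 CPM in replicate 4, below all YH29407 libraries. The summed level of the 15 T cell genes was 79.9, 87.4 and 30.1 CPM in the combination group, against 11.1, 38.6 and 11.2 CPM with YH29407 alone. In this sum YH29407 replicate 3 lay above combination replicate 4, whereas Lag3 and Tigit had the reverse order. The part of T cells in the levels of these receptors and ligands was not tested.

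Among 23 cytokines, 17 had higher estimates and 3 had an unadjusted p under 0.05, all higher (higher among all genes: 10.6%). Of the 23, 2 lay above and 1 below (all genes: 10.4% and 9.1%), and after GC correction 4 above and 1 below. Il16, which attracts CD4+ cells, had 16.9, 25.1 and 4.53 CPM in the combination group, against 6.86, 6.57 and 5.09 CPM with YH29407 alone (adjusted p = 0.028 without combination replicate 4), with replicate 4 below every YH29407 library. Il33, an alarm signal of stromal nuclei, had 173, 172 and 3.33 CPM in combination tumors and 1.45, 76.8 and 51.9 CPM in YH29407 tumors, a range that overlapped widely since YH29407 replicate 1 was nearly devoid of it. Il12a, a subunit of interleukin 12, had 9.38, 13.6 and 1.44 CPM with the combination, against 0, 3.04 and 0 CPM with YH29407. Il27 and Csf3 lay above in every library, both at low levels, and Il23a lay below, with 0.749, 0.772 and 2.5 CPM in the combination libraries and 3.01, 3.19 and 2.96 CPM in the YH29407 libraries.

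Of 50 chemokine and receptor genes, 4 lay above and 4 below (all genes: 10.4% and 9.1%), and after GC correction 6 above and 4 below. Ccl2, a chemokine that attracts monocytes, had 66, 70.7 and 15.9 CPM in the combination group, against 133, 115 and 132 CPM with YH29407 alone (log2 fold change -1.31 ± 0.49 SE), and Ccl7, its neighbor, had 10.3, 11.4 and 3.02 CPM in combination tumors and 29.6, 22.5 and 26.8 CPM in YH29407 tumors. In both genes replicate 4 lay further under the YH29407 libraries than replicates 2 and 3. Cx3cl1, a membrane-bound chemokine of endothelium, had 3.78, 2.62 and 8.7 CPM with the combination, against 18.9, 8.98 and 12.6 CPM with YH29407, and Ccl11, which attracts eosinophils, had 1.19, 0.996 and 0.378 CPM in the combination libraries and 8.19, 0.922 and 9.21 CPM in the YH29407 libraries, with YH29407 replicate 3 within the combination group. Ccl19, which guides dendritic cells and naive T cells, had 2.07, 0.884 and 0.539 CPM in the combination group, against 0.111, 0.184 and 0 CPM with YH29407 alone, and Xcr1, the receptor of cross-presenting dendritic cells, had 2.25, 3.13 and 0.324 CPM in combination tumors and 0.456, 0.645 and 0.173 CPM in YH29407 tumors, with replicate 4 within the YH29407 libraries.

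In the NF-kB pathway, 17 of 21 genes had higher estimates, 7 of them at an unadjusted p under 0.05 (higher among all genes: 10.6%), and 5 lay above (all genes: 10.4%). Bcl3, a coactivator of the p50 and p52 subunits, had 119, 78.9 and 214 CPM with the combination, against 27.3, 51.9 and 40.2 CPM with YH29407 (log2 fold change 1.79 ± 0.42 SE), and the subunit Relb had 82, 63.2 and 141 CPM in the combination libraries and 26.8, 54.1 and 35.7 CPM in the YH29407 libraries. The inhibitor Nfkbie had 59.3, 51.9 and 65.1 CPM in the combination group, against 16.5, 38.9 and 14.5 CPM with YH29407 alone. In Bcl3 and Relb combination replicate 4 was the highest library, and after GC correction the log2 fold changes were 1.18 and 1.05. The kinase regulator Ikbkg was the only member below, at -0.39, which was -0.01 after GC correction.

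The complement list of 18 genes held members on both sides. C1qa and C1qc, chains of the first component made by macrophages, lay above: C1qc had 104, 103 and 92.5 CPM in combination tumors and 53.3, 60.4 and 60.8 CPM in YH29407 tumors (log2 fold change 0.78 ± 0.15 SE, 0.84 with an adjusted p of 0.0314 without replicate 4), and C1qa had 95, 95 and 106 CPM with the combination, against 52.5, 63.9 and 61.4 CPM with YH29407. After GC correction replicate 4 was at 64.6 CPM for C1qc and at 63.3 CPM for C1qa, and both genes overlapped. Hc, the fifth component, had 11.1, 13.3 and 6.73 CPM in the combination libraries and 44.7, 15.5 and 28 CPM in the YH29407 libraries, and C2, of the classical convertase, had 7.004, 6.21 and 1.92 CPM in the combination group, against 11.1, 17 and 16.4 CPM with YH29407 alone. Both lay below before and after GC correction.

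Of 50 growth factors and receptors, 10 lay above and 4 below, against 10.4% and 9.1% of all genes, and after GC correction 10 above and 5 below. Tgfb2, a transforming growth factor β, had 28.6, 27.6 and 9.96 CPM in combination tumors and 5.34, 7.85 and 4.24 CPM in YH29407 tumors (log2 fold change 1.92 ± 0.47 SE, adjusted p = 0.0458 without combination replicate 4). Nrg1, the neuregulin that activates Erbb3, had 100.1, 67.2 and 29.1 CPM with the combination, against 4.02, 27.5 and 11 CPM with YH29407, and Erbb3 itself had 41, 33.2 and 32.2 CPM in the combination libraries and 27.7, 15 and 14.9 CPM in the YH29407 libraries. Fgf1, an acidic fibroblast growth factor, had 3.63, 3.11 and 1.15 CPM in the combination group, against 0.166, 0.435 and 0.101 CPM with YH29407 alone, whereas Fgf7, of the same family, lay below. Fgfr3 had 12, 10.9 and 13.6 CPM in combination tumors and 5.23, 6.52 and 7.81 CPM in YH29407 tumors, and Vegfb had 26.1, 21.8 and 53.2 CPM with the combination, against 17.3, 20.6 and 19 CPM with YH29407, with a log2 fold change of 0.83 before and 0.22 after GC correction. The TGF-β gene Tgfb3 had 17.6, 18.8 and 21.6 CPM in the combination libraries and 51.5, 33.4 and 20.2 CPM in the YH29407 libraries, which overlapped and had the opposite sign to Tgfb2.

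Axon guidance genes, which also steer vessels and immune cells, gave 10 above and 2 below of 49, with or without GC correction (all genes: 10.4% and 9.1%). Unc5a, a netrin receptor, had 2.11, 1.92 and 3.45 CPM in the combination group, against 0.415, 0.395 and 0.303 CPM with YH29407 alone (log2 fold change 2.74 ± 0.42 SE, adjusted p = 0.0407 without combination replicate 4). The plexins Plxna1, Plxnb1, Plxnb2 and Plxnd1, receptors of semaphorins, lay above in every library, with log2 fold changes of 0.70, 1.39, 0.44 and 1.27. After GC correction these were 0.54, 1.06, 0.24 and 0.87, and Plxna1 and Plxnb2 overlapped. The semaphorin Sema3a lay below, as did Epha2, an ephrin receptor, with 10.3, 9.93 and 21.8 CPM in combination tumors and 38.4, 22.2 and 24.6 CPM in YH29407 tumors. Slit2 and Neo1 were high in YH29407 replicates 1 and 4: Slit2 had 17.3, 20.7 and 40.6 CPM with the combination, against 135, 30.003 and 95.2 CPM with YH29407.

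The matrix gene Eln, elastin, had 61.5, 58.6 and 65.8 CPM in the combination libraries and 0.29, 0.909 and 0 CPM in the YH29407 libraries, with 10.6 and 26.5 CPM in aPD-1 tumors and 16.4 and 3.31 CPM in control tumors. The 3 combination libraries lay within a narrow range above all 7 others, and the YH29407 libraries were below all others. Its log2 fold change was 7.26 ± 1.25 SE, and 7.21 without combination replicate 4 (adjusted p = 0.0507). Of 49 matrix and remodeling genes, 10 lay above and 2 below (all genes: 10.4% and 9.1%), and 12 had higher and 2 lower estimates at an unadjusted p under 0.05 (all genes: 10.6% and 6.84%). After GC correction 12 lay above and 2 below. Col5a2 had 89.4, 80.6 and 68.7 CPM in the combination group, against 19.4, 41.4 and 15.9 CPM with YH29407 alone, and the protease Mmp14 had 269.9, 235 and 335 CPM in combination tumors and 195, 188 and 194 CPM in YH29407 tumors. The 2 genes below were Fn1 and Timp1, an inhibitor of matrix proteases, with 61.5, 55.4 and 31.2 CPM with the combination, against 103, 64.6 and 104 CPM with YH29407.

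Of 33 nuclear genes of oxidative phosphorylation, 1 lay above and 4 below, against 10.4% and 9.1% of all genes. After GC correction 2 lay above and 1 below, and the median in combination replicate 4 was 0.26, compared with -0.21 before it. Cycs, the cytochrome c of somatic cells, had 132, 142 and 93.7 CPM in the combination libraries and 175, 153 and 153 CPM in the YH29407 libraries, and its log2 fold change of -0.39 was 0.05 after GC correction. Uqcrq, a subunit of complex III, also lay below, with 79.4, 76.4 and 81.2 CPM in the combination group, against 101, 90.6 and 90.5 CPM with YH29407 alone. Of 28 genes of glycolysis and hypoxia, 22 had lower estimates, of which 1 had an unadjusted p under 0.05 (lower among all genes: 6.84%). It overlapped: the phosphofructokinase Pfkp had 175, 204 and 132 CPM in combination tumors and 359, 158 and 439 CPM in YH29407 tumors. Bnip3, a hypoxia gene of mitochondrial removal, had 33.4, 45 and 22.7 CPM with the combination, against 65.5, 19.5 and 138 CPM with YH29407. YH29407 replicate 3 was the lowest library for it and replicate 4 the highest, so that the spread within the YH29407 group was wider than the difference. The glucose transporter Slc2a3 lay above, with 3.64, 3.02 and 4.24 CPM in the combination libraries and 0.677, 1.41 and 1.75 CPM in the YH29407 libraries. Among 23 genes of cholesterol synthesis, Idi1 and Cyp51 were high in YH29407 replicates 1 and 4, and Idi1 had 22.1, 31.9 and 11.5 CPM in the combination group, against 55.8, 26.6 and 54 CPM with YH29407 alone.

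Ribosomal protein genes and the mitochondrial genome marked combination replicate 4 rather than the group. All 13 mitochondrially encoded mRNAs had higher estimates, and ND5, a subunit of complex I, had 881, 681 and 4438 CPM in combination tumors and 695, 703 and 653 CPM in YH29407 tumors. Their summed level was 5421, 4095 and 23040 CPM in the combination libraries, against 4380, 4342 and 4179 CPM with YH29407 alone. Of 35 ribosomal protein genes, 31 had higher estimates and 0 lay above or below in every library, and Rps2 had 2126, 1627 and 5163 CPM with the combination, against 1815, 1657 and 1663 CPM with YH29407. Among heat shock genes, Hspa1a had 16.6, 11.7 and 63.4 CPM in the combination libraries and 29.2, 37.2 and 18.3 CPM in the YH29407 libraries, with replicates 2 and 3 below all YH29407 libraries and replicate 4 above them.

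Among nuclear receptors, beside Rxra, Nr1h3, an oxysterol receptor that pairs with Rxra, had 14, 17 and 4.89 CPM in the combination group, against 3.42, 4.74 and 3.56 CPM with YH29407 alone, and after GC correction replicate 4 was at 3.6 CPM and overlapped. Of the 25 receptors tested, 3 lay above and 1 below, against 10.4% and 9.1% of all genes. After GC correction 6 lay above and 2 below, against 11.997% and 8.84%.

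Immediate early genes, which respond within minutes to signals reaching a cell, lay above in 11 of 27 and below in 2 (all genes: 10.4% and 9.1%). Egr2, the relative of Egr3, had 11.2, 7.53 and 8.87 CPM in combination tumors and 2.07, 5.58 and 1.72 CPM in YH29407 tumors, and Fos had 21.4, 18.9 and 21.2 CPM with the combination, against 9.69, 12 and 13 CPM with YH29407. Nr4a1 and Nr4a3, orphan receptors that follow T cell receptor signals, lay above, with log2 fold changes of 0.67 and 0.90. Klf10 lay below, with 27.7, 29.1 and 23.2 CPM in the combination libraries and 47.1, 38.2 and 41.6 CPM in the YH29407 libraries. After GC correction 10 of the 27 lay above (all genes: 11.997%). Cell cycle genes lay above in 6 of 35 and below in 0 (all genes: 10.4% and 9.1%). After GC correction they did so in 8 and 1 (all genes: 11.997% and 8.84%). Ccnd1, the cyclin of the G1 phase, had 199.6, 166 and 279.6 CPM in the combination group, against 105, 152 and 73.6 CPM with YH29407 alone. Mki67, the marker of dividing cells, had 2214, 2223 and 699.5 CPM in combination tumors and 1773, 1534 and 1452 CPM in YH29407 tumors, with replicates 2 and 3 above every YH29407 library and replicate 4 below every one. In the Wnt list, Lgr5, a stem cell receptor, had 1.74, 0.884 and 1.44 CPM with the combination, against 0.138, 0.408 and 0.159 CPM with YH29407 and Tcf7, a factor of Wnt signaling and of T cells, had 42.2, 34.4 and 50.4 CPM in the combination libraries and 11.5, 31.8 and 12.4 CPM in the YH29407 libraries, while the cadherin Cdh2 lay below, with 23.9, 22.7 and 17.4 CPM in the combination group, against 49.4, 25.8 and 48 CPM with YH29407 alone.

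Dendritic cell genes had higher estimates in 16 of 18, with 5 above and 0 below, against 10.4% and 9.1% of all genes. Zbtb46, a factor of classical dendritic cells, had 35.3, 40.2 and 48.6 CPM in combination tumors and 18, 24.5 and 14.8 CPM in YH29407 tumors (log2 fold change 1.12 ± 0.23 SE), and Flt3, their growth factor receptor, had 4.11, 5.18 and 3.04 CPM with the combination, against 1.56, 1.96 and 1.73 CPM with YH29407 (adjusted p = 0.0483 without combination replicate 4). Batf3, needed for the cross-presenting type, had 1.78, 1.37 and 1.13 CPM in the combination libraries and 0.539, 0.408 and 0.765 CPM in the YH29407 libraries, and Itgae, an integrin of that type and of resident T cells, had 4.67, 5.34 and 1.56 CPM in the combination group, against 1.24, 1.53 and 0.88 CPM with YH29407 alone. All 4 lay above in replicate 4 too, whereas the costimulatory receptor Cd40 had 23.6 and 23.3 CPM in replicates 2 and 3 and 4.75 CPM in replicate 4, below every YH29407 library. The summed level of the list was 443, 509.5 and 418 CPM in the combination group, against 344, 333 and 307 CPM with YH29407 alone.

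Macrophage genes lay above in 5 of 22 (all genes: 10.4%) and in 3 after GC correction, when C1qa and C1qc overlapped. The scavenger receptor Cd163 had 9.44, 6.85 and 4.5 CPM in combination tumors and 0.968, 3.82 and 0.722 CPM in YH29407 tumors, while Spp1, osteopontin, had 200.5, 190.4 and 311 CPM with the combination, against 578, 241 and 502 CPM with YH29407, with YH29407 replicate 3 within the combination group. The summed level of the 22 genes, 1397, 1562 and 1036 CPM in the combination group, did not separate from 1339, 1321 and 1325 CPM with YH29407 alone. Of 15 neutrophil genes, 0 had an unadjusted p under 0.05 (all genes: 17.4%). Il1b had 47.9, 30.6 and 3.2 CPM in the combination libraries and 10.6, 6.57 and 25.2 CPM in the YH29407 libraries, and S100a9 had 15.3, 6.78 and 0.0719 CPM in the combination group, against 1.42, 2.08 and 4.31 CPM with YH29407 alone. Replicates 2 and 3 were high and replicate 4 low for both.

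Of 12 NK cell genes, replicates 2 and 3 both lay above the YH29407 libraries in 10 (all genes: 19.4%), and replicate 4 did so in 0 (all genes: 8481 of 21523). After GC correction replicate 4 lay above in 4 and below in 5 (all genes: 8572 and 6541 of 19739). Its median over the list was then -0.13, compared with -0.68 before. Klrb1c, the NK1.1 antigen, had 5.88, 9.02 and 0.737 CPM in combination tumors and 0.705, 1.91 and 0.996 CPM in YH29407 tumors (adjusted p = 0.0475 without combination replicate 4), and Ncr1, the receptor NKp46, had 5.35, 8.23 and 0.468 CPM with the combination, against 1.37, 1.75 and 1.85 CPM with YH29407. Klra8 and Klra7, receptors of the Ly49 cluster whose members can share reads, were at 0 CPM in replicate 4, and Klra8 was at 7.19 and 14.5 CPM in replicates 2 and 3. Klra4, of the same cluster, went the other way in every library, with 9.12, 15.3 and 3.47 CPM in the combination libraries and 42.1, 25.7 and 54.4 CPM in the YH29407 libraries (log2 fold change -2.13 ± 0.50 SE).

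T cell genes had higher estimates in all 15 tested and lay above in 7 (all genes: 10.4%), and in 9 after GC correction. Cd4 had 3.24, 3.16 and 0.719 CPM in the combination group, against 0.608, 0.435 and 0.548 CPM with YH29407 alone (adjusted p = 0.0294 without combination replicate 4) and Cd8a had 10.8, 12.7 and 3.99 CPM in combination tumors and 1.06, 8.21 and 0.635 CPM in YH29407 tumors, where YH29407 replicate 3 overlapped. Cd5, an inhibitory receptor of T cells, had 3.48, 3.03 and 1.64 CPM with the combination, against 0.387, 0.988 and 0.722 CPM with YH29407. The marker of regulatory T cells Foxp3 had 6.56, 6.94 and 2.05 CPM in the combination libraries and 1.33, 1.96 and 1.67 CPM in the YH29407 libraries, which overlapped after GC correction. In the B cell and plasma cell list, the heavy chain Ighm had 49.9, 71.7 and 22.1 CPM in the combination group, against 24.2, 14.4 and 10.4 CPM with YH29407 alone and the light chain Igkc had 2.56, 10.2 and 0.719 CPM in combination tumors and 0.539, 0.329 and 0.447 CPM in YH29407 tumors. Mast cell, basophil and eosinophil genes lay above in 3 of 11 (all genes: 10.4%) and in 2 after GC correction. They were led by the factor Gata2, with 8.59, 6.2 and 6.98 CPM with the combination, against 3.59, 4.33 and 4.86 CPM with YH29407.

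All 20 skeletal muscle genes tested had higher estimates, and 17 lay above (all genes: 10.4%), as they did after GC correction. The summed level was 1312, 1449 and 853.7 CPM in the combination group, against 38.3, 162.9 and 46.7 CPM with YH29407 alone, and 103 to 615 CPM in the aPD-1 and control tumors. Ttn, the giant spring protein of the sarcomere, had 1046, 1238 and 429 CPM in the combination libraries and 10.2, 107 and 12.4 CPM in the YH29407 libraries. Mybpc2, of fast fibers, had 7.75, 6.16 and 24.6 CPM in the combination group, against 0.415, 1.42 and 0.765 CPM with YH29407 alone (log2 fold change 3.88 ± 0.70 SE). Replicate 4 was highest for Mybpc2, Acta1, Tnnt3 and Myh4 but lowest of its group for Ttn and Neb, and all 20 genes were higher in it than in any YH29407 library. The part of muscle tissue in other differences was not tested.

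Erythroid genes had higher estimates in all 7 tested and lay above in 5 (all genes: 10.4%). The α-globin gene Hba-a2, a near-copy of Hba-a1, had 69.3, 47.2 and 166 CPM in combination tumors and 11.9, 18.5 and 17.8 CPM in YH29407 tumors, and Alas2, of heme synthesis in red cells, had 2.86, 3.27 and 2.12 CPM with the combination, against 1.05, 0.922 and 1.18 CPM with YH29407. The summed level was 205.7, 168 and 345.8 CPM in the combination group, against 47.3, 70.1 and 66.6 CPM with YH29407 alone. Since the aPD-1 and control tumors reached 139 to 1280 CPM, the YH29407 libraries were the low ones. Of 7 liver genes, 6 lay above at low levels (all genes: 10.4%, genes under 1 CPM: 14.98%). Serpina1b had 4.3, 5.47 and 0.899 CPM in the combination libraries and 0.0691, 0.105 and 0.101 CPM in the YH29407 libraries, and Serpina1e had 1.7, 1.68 and 0.773 CPM in the combination group, against 0, 0.0395 and 0 CPM with YH29407 alone. The albumin gene was not among the genes that passed the filter. Nerve and Schwann cell genes lay above in 5 of 9 (all genes: 10.4%). Among them Gap43, of growing axons, had 1.4, 0.7996 and 3.24 CPM in combination tumors and 0.194, 0.237 and 0.202 CPM in YH29407 tumors.

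Fibroblast genes had higher estimates in 7 of 16, with a median log2 fold change of -0.18 (-0.04 after GC correction). They lay above in 2 of 16 and below in 0 (all genes: 10.4% and 9.1%). Dcn, decorin, had 326, 269 and 139.7 CPM with the combination, against 71.6, 159.9 and 96.7 CPM with YH29407. Col1a2, the partner chain of Col1a1, had 279, 203 and 471 CPM in the combination libraries and 31.3, 203 and 13.7 CPM in the YH29407 libraries, where YH29407 replicate 3 was level with combination replicate 3. Endothelial genes had 0 of 24 at an unadjusted p under 0.05 (all genes: 17.4%) and 1 above (all genes: 10.4%). Pericyte and smooth muscle genes lay above in 3 of 14 and below in 1 (all genes: 10.4% and 9.1%). After GC correction they did so in 2 and 1 (all genes: 11.997% and 8.84%). Among them the proteoglycan Cspg4 had 82.7, 74.3 and 113 CPM in the combination group, against 15.7, 61 and 9.65 CPM with YH29407 alone and the intermediate filament Des had 12.5, 10.1 and 11.8 CPM in combination tumors and 1.98, 4.5 and 3.46 CPM in YH29407 tumors, both above. Of 7 adipocyte genes, 2 had higher estimates, and the median log2 fold change was -0.59 (-0.41 after GC correction). The lipase Lipe lay above, with 21.7, 20.2 and 21.5 CPM with the combination, against 11.8, 14.6 and 11.5 CPM with YH29407.

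**Figure D4:**
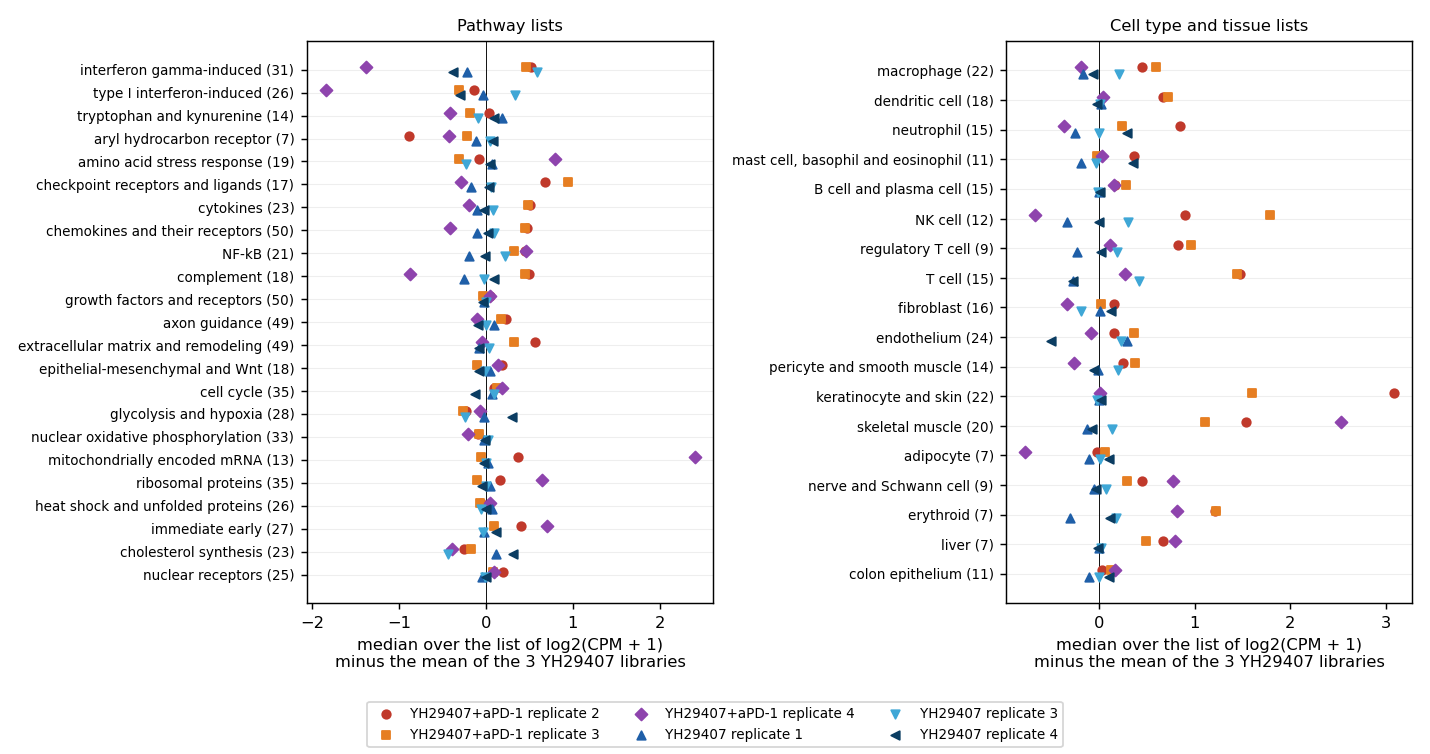
Median over each gene list of log2(CPM + 1) minus the mean of the 3 YH29407 libraries (horizontal axis), with the number of genes tested in parentheses, for pathway lists (left) and lists of cell types and tissues (right). Points are libraries, combination above YH29407 in each row. Combination replicate 4 lies at -1.85 for type I interferon-induced genes, where replicates 2 and 3 lie at -0.14 and -0.31, and all 3 combination libraries lie above the YH29407 libraries for skeletal muscle, erythroid and liver genes.

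Combination replicate 4 was then set beside replicates 2 and 3 over all genes. It was the highest of the 6 libraries in 34.0% of the genes and the lowest in 35.7%, against 9.32% to 15.9% and 7.05% to 13.7% for the others. Over all 21523 genes tested it lay above every YH29407 library in 8481 and below every one in 8504, which is the background for the next counts. Both replicates 2 and 3 exceeded every YH29407 library in 4177 genes (19.4%), and of these replicate 4 lay above in 2244 (53.7%), within in 920 and below in 1013 (24.3%). Replicates 2 and 3 were both under every one in 3315 genes (15.4%), and of these replicate 4 lay below in 1959 (59.1%), within in 578 and above in 778. After GC correction the share of 53.7% was 54.8%, with replicate 4 above every YH29407 library in 8572 of all 19739 genes. Replicate 4 was still the highest of the 6 in 37.3% and the lowest in 29.1% of the 19739 genes with a GC value, so that the distance of this library remained after the correction.

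In the fit without replicate 4, 139 of 20674 genes were higher (0.672%) and 36 lower (0.174%) at an adjusted p under 0.05, together 0.846%. Of the 139 that were higher, replicate 4 lay above the YH29407 libraries in 77, within them in 26 and below them in 36. Of the 36 that were lower, it lay below in 26, within in 4 and above in 6. Among all 21523 genes of the main fit it lay above in 8481 and below in 8504. The smallest p among the higher genes belonged in large part to stratified epithelium: Sprr2a1 had 201, 56.2 and 1.76 CPM in the combination libraries and 0.0553, 0.0922 and 0.188 CPM in the YH29407 libraries and Krt6b had 254, 117 and 0.629 CPM in the combination group, against 0, 0 and 0.188 CPM with YH29407 alone. Outside that tissue, Pde9a, a phosphodiesterase of cyclic GMP, had 68.3, 79.8 and 6.22 CPM in combination tumors and 1.38, 2.46 and 1.49 CPM in YH29407 tumors, with the 4 aPD-1 and control libraries at 12.1 to 29.5 CPM. Replicate 4 lay between the groups. Islr, a surface protein of mesenchymal cells, had 53.3, 38.3 and 11.3 CPM with the combination, against 6.26, 6.88 and 5.82 CPM with YH29407. Birc2, an inhibitor of cell death in NF-kB signaling, had 164, 173 and 56.7 CPM in the combination libraries and 65.3, 81.3 and 71 CPM in the YH29407 libraries, and replicate 4 at 106 CPM after GC correction lay above the YH29407 range.

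In several lower genes of that fit, replicate 4 lay nearer to the YH29407 group than to replicates 2 and 3. Osr1, a factor of mesenchymal progenitors, had 13.5, 12.1 and 57.1 CPM in the combination group, against 61.6, 60.3 and 47.7 CPM with YH29407 alone, and Sox2, of stem cells, had 3.62, 3.37 and 17.5 CPM in combination tumors and 21.3, 19.9 and 18.9 CPM in YH29407 tumors. Replicate 4 was within the YH29407 range for Osr1 and just under it for Sox2. Dppa4, a chromatin factor of early embryos, had 1.98, 2.82 and 8.69 CPM with the combination, against 23.3, 28.8 and 16.5 CPM with YH29407, and Chrnb1, the β subunit of the muscle acetylcholine receptor, had 3.3, 3.79 and 22 CPM in the combination libraries and 29.8, 17.8 and 18.8 CPM in the YH29407 libraries. Their log2 fold changes were -2.14, -2.51, -3.25 and -2.64 without replicate 4 (adjusted p of 0.0167, 0.0253, 0.0253 and 0.0253), and -1.04, -1.30, -2.35 and -1.19 with it. Naip1, a sensor of bacterial proteins in the inflammasome, had 23.4, 23.9 and 5.56 CPM in the combination group, against 49.97, 50.2 and 43 CPM with YH29407 alone, where replicate 4 was lower still, and Hcn2, an ion channel, had 0.406, 0.393 and 1.1 CPM in combination tumors and 2.34, 2.7 and 2.44 CPM in YH29407 tumors.

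The genes in which replicate 4 lay farthest above all 5 other libraries included muscle genes. Pvalb, a calcium buffer of fast muscle, had 0.228, 0.14 and 23.7 CPM with the combination, against 0, 0 and 0 CPM with YH29407, and the muscle calcium pump Atp2a1 had 6.69, 2.81 and 47.1 CPM in the combination libraries and 0.332, 0.817 and 0.317 CPM in the YH29407 libraries. Xntrpc had 4.24, 4.78 and 64.9 CPM in the combination group, against 3.58, 2.62 and 3.09 CPM with YH29407 alone and the membrane protein gene Inafm1 had 4.48, 3.91 and 59.1 CPM in combination tumors and 1.89, 3.71 and 0.577 CPM in YH29407 tumors. An olfactory receptor (Olfr1484) was among the 10, and the 446 olfactory and vomeronasal receptor genes tested summed to 351, 361 and 937.5 CPM in the combination libraries, against 93.5, 243 and 180.3 CPM with YH29407 alone. Among the genes in which it lay farthest below were Ifi203, Ifi205 and Ifi213, of DNA sensing, Samd9l, the GTPase Tgtp2 and the caspases Casp4 and Casp12. Ifi205 had 236, 216 and 9.48 CPM with the combination, against 121, 94.6 and 117 CPM with YH29407, Samd9l had 507, 661 and 58.4 CPM in the combination libraries and 639, 581 and 605 CPM in the YH29407 libraries, and Casp4 had 80.8, 102 and 6.83 CPM in the combination group, against 78.8, 58.2 and 90.7 CPM with YH29407 alone. Setdb2, a histone methyltransferase, had 0 counts in replicate 4, against 20.6 and 53.3 CPM in replicates 2 and 3 and 72.1, 33.2 and 67.9 CPM with YH29407 alone. After GC correction replicate 4 stayed the lowest, with Samd9l at 126 CPM and Casp4 at 15 CPM in replicate 4.

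**Figure D5:**
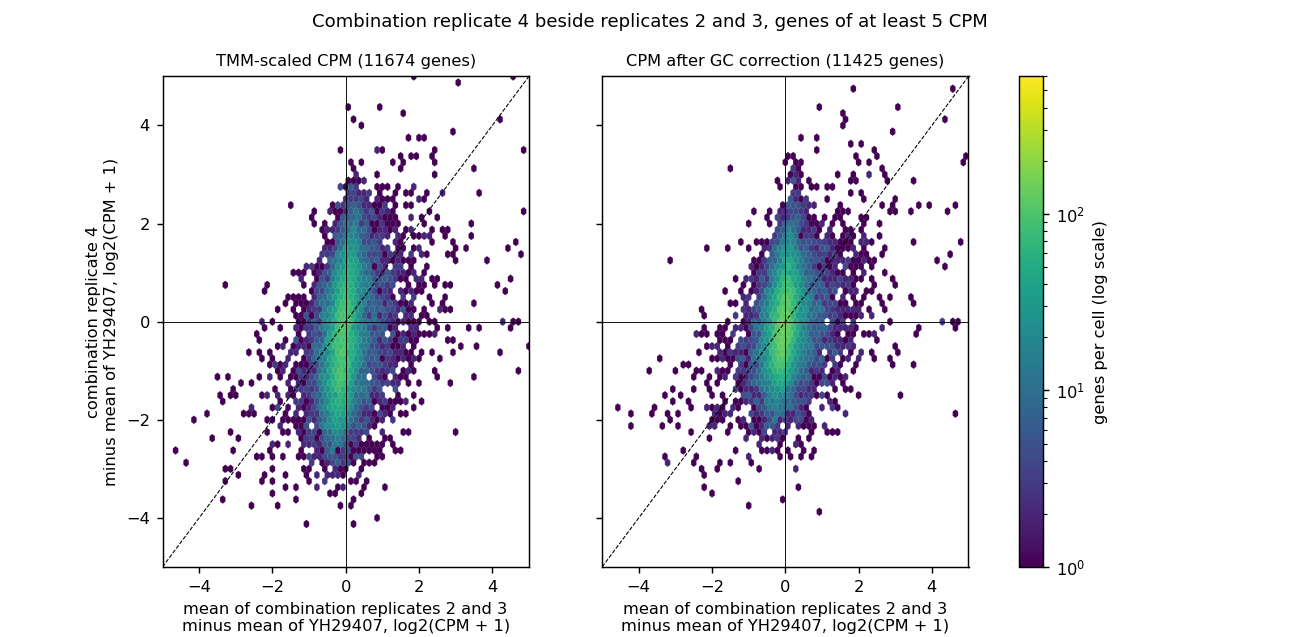
Difference of combination replicate 4 from the mean of the YH29407 libraries (vertical axis) against the same difference for the mean of combination replicates 2 and 3 (horizontal axis), both in log2(CPM + 1), before (left) and after GC correction (right), for genes of at least 5 CPM, with the number of genes per cell on a log color scale and axes limited to 5 in each direction. The cloud is taller than it is wide in both panels, and it is narrower after the correction. Since the horizontal axis averages 2 libraries and the vertical axis shows 1, the shape of the cloud cannot compare their distances from the YH29407 group.

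By chromosome, GC-corrected values of 11424 genes of at least 5 CPM placed 8.93% above and 11.6% below. Chromosome 7 held 17.3% above and 7.29% below of its 850 genes. Chromosome 13 held 2.1% above and 11.4% below of its 428 genes, and chromosome 12 held 3.75% above and 15% below of its 400 genes. On chromosome 13 the genes deviated from their mean over the 6 libraries by a median of -0.16, -0.08 and -0.09 in combination replicates 2, 3 and 4 and 0.32, -0.12 and 0.12 in YH29407 replicates 1, 3 and 4. YH29407 replicates 1 and 4 were thus the libraries that set chromosome 13 apart. On chromosome 7 the medians were 0.06, 0.07 and 0.02 in the combination libraries, against -0.08, -0.02 and -0.06 with YH29407 alone.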

How the data were processed

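Tumor RNA of 10 labelled samples was sequenced from SureSelectXT RNA Direct libraries in paired-end reads of 100 bases. Per the study's methods, the authors trimmed reads with Trimmomatic, aligned them with HISAT2 to mm10 and quantified genes with StringTie (Bowtie2 is named too, and the labels name a second library kit). The authors deposited a read count, an FPKM and a TPM for each gene and library. The deposited counts are whole numbers per gene, not normalized, and were the values tested. The deposited FPKM values were not used, and the deposited TPM values served for 1 alternative. A code file of the authors holds no measurements and was not used. It runs DESeq2 on rounded FPKM.

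Counts were normalized by TMM, filtered with filterByExpr and fitted with the edgeR quasi-likelihood test (edgeR 4.0.16, R 4.3.3) on all 10 libraries, with the combination against YH29407 alone as the contrast and Benjamini-Hochberg adjustment over 21523 genes at a threshold of 0.05. The study used DESeq2, which is an alternative here (1.42.0), as is limma-voom (3.58.1). CPM are TMM-scaled, and logs add 1 CPM. Libraries held 56170804 to 76287659 counts, which cover counting error only and leave the spread between 3 libraries per group as the limit. A call of "above" or "below" means that the 3 libraries of the groups do not overlap.

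Named genes are the 15 higher and 15 lower of smallest p with separated libraries and a log2 fold change of at least 1 in size, the 10 in each direction of largest difference in mean CPM, the 10 in each direction of smallest p without combination replicate 4, the 10 in each direction where that replicate lies farthest from the 5 other libraries among genes of at least 5 CPM, and up to 5 members of each list by p. Some of these genes are not reported here. Symbols with Gm numbers, Rik, LOC or a pseudogene name were passed over. Further members that describe a list were chosen after their values were seen. The 23 pathway and 18 cell type lists and their members were chosen with earlier results of these data known. Alternatives were another normalization, no filter, robust estimation, other tools, only the 6 libraries, a replicate block and each replicate left out.

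The GC correction was chosen after seeing the data. For each library a lowess curve (span 0.3) of the deviation in log2(CPM + 1) against the GC content of the longest transcript entered the fit as an offset, for 19739 genes with a GC value (91.7%). Promoters are from RefSeq tables of GRCm38.p6, the build of the files. Whether counting used strand is not given in the sources used here, so overlapping and antisense genes, and near-identical copies, are uncertain. The edgeR test was checked on simulated counts that held no outlying library, unlike these data. The GC correction was checked on simulated counts with a GC trend added.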

Additional observations from a re-analysis of the deposited data

How the results depend on the processing

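The count of 0 genes at an adjusted p under 0.05 held for edgeR with DESeq2 size factors, robust estimation, only the 6 libraries and GC correction, and was 1 without a filter on low counts, 1415 with DESeq2 on the 10 libraries (920 higher), 793 with DESeq2 on the 6 (578 higher) and 8090 with limma-voom and sample quality weights (3930 higher). Leaving out single replicates gave 0 to 431. Unadjusted, the higher genes numbered 1434 with only the 6 libraries, 3497 with DESeq2 on the 10 and 5251 with limma-voom, and 1153 to 3468 without single replicates. The lower genes numbered 732 with only the 6 libraries and 5268 with limma-voom, and 692 to 2573 without single replicates. The cause of these differences was not tested. Genes with all combination libraries above numbered 2096 by library totals, 1884 in TPM and 2594 to 4542 without single replicates, where fewer libraries separate more readily, and those below 2216, 2189 and 2297 to 4656. Without combination replicate 4, GC correction gave 318 calls (243 higher) in place of 175.

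Replicate numbers 3 and 4 occur in both groups, and the labels do not say that a number marks a shared batch. Deviations of the same-numbered libraries correlated at -0.072 and -0.114 across 11561 genes, against -0.096 to 0.116 for the other pairs. So few same-numbered pairs cannot decide whether a number marks a shared batch, and the libraries were not treated as pairs. With the replicate block the counts were 0 adjusted, 415 higher and 159 lower.

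Hspa1a had a log2 fold change of -0.12 with the replicate block, -0.64 with limma-voom, -0.39 after GC correction, and -0.99 to 0.57 without single replicates. With the block Ifi205 (-0.34), Il33 (-0.19), Mki67 (-0.18) and S100a9 (-0.28) turned negative. Without single replicates Mki67 was between -0.11 (without combination replicate 2) and 0.49, and Casp4 between -0.76 and 0.27 (without combination replicate 4). Cycs and Rpl21 were at 0.049 and 0.041 after GC correction. In Ifi213, Tgtp2 and Ifi203, where combination replicate 4 was the lowest library, estimates changed sign. Ifi213 was at 0.0089 with DESeq2 size factors, 0.0069 with only the 6 libraries, 0.0073 and 0.0012 with DESeq2 on the 10 and the 6, 0.72 with limma-voom, 0.13 after GC correction and -0.47 to 0.54 without single replicates. Tgtp2 was at 0.44 with limma-voom and -0.56 to 0.40 without single replicates, and Ifi203 at -0.77 to 0.19.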
